A study of Mus musculus with 4 samples.

Results

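Messenger RNA was measured in mature bone marrow neutrophils of mice with (WT) and without (Srf KO) the transcription factor SRF, and 9 genes of Src family and Syk signalling were taken from the gene-level comparison of the genotypes. They were the rows whose gene symbol was Fgr, Lyn, Syk, Btk, Csk, Ptpn6, Plcg2, Vav1 or Lcp2, 9 of 23284 genes in the table. All 9 were tested by the authors, so none was lost to a filter on low values. Cells high in Gr1, in the 7/4 antigen and in side scatter were sorted from the marrow of WT and Srf KO mice, 2 samples of each genotype. The strain, age and sex of the mice, the way in which Srf was deleted and the cells in which it was deleted are not given in the sources used here.

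Neutrophils read several surface receptors through this pathway. When beta-2 integrins or Fc receptors are engaged, Src family kinases phosphorylate tyrosines in the ITAM motifs of adaptor proteins, the kinase Syk binds the phosphorylated motifs, and Syk then acts on a set of adaptors and enzymes that lead to spreading, degranulation and the oxidative burst. The kinase Csk and the phosphatase encoded by Ptpn6 (SHP-1) hold the pathway back.

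The deposited tables gave 1 value per genotype in FPKM, a read level scaled to transcript length and library size, so depth per sample and the spread between samples were not available to any result here. Log2 folds are given as Srf KO over WT, and each is followed by ± 1 standard error, computed here from the authors' fold and test statistic. A gene is called where the authors' adjusted p is at most 0.05. Whether the samples of 1 genotype came from separate animals is not in the labels. The Srf KO pool held both Xist, made from the inactive X chromosome, and Y-linked RNA (values below), so it drew on more than 1 animal. How animals were divided over the samples is not known, so the spread behind the authors' p-values may be technical. In the authors' deposited table Srf stood at 13.7 FPKM (WT) and 0.439 FPKM (Srf KO). Neutrophil genes were present in both genotypes: the resistin-like gene Retnlg stood at 24805 and 17117 FPKM and the chemokine receptor gene Cxcr2 at 596 and 201 FPKM in the authors' deposited table. Of the 13 neutrophil markers found, 5 (S100a8, S100a9, Ltf, Camp and Ngp) exceeded the authors' read limit and carry no usable level.

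In the Srf KO neutrophils 8 of the 9 genes were lower and none was higher at the authors' threshold. Over all 12634 tested genes the shares were 17.8% lower and 17.7% higher. The 9 genes had a median log2 fold of -0.72, against 0.08 over all tested genes. The falls were moderate and ran from 1.53-fold for the exchange factor gene Vav1 to 2.02-fold for the phospholipase gene Plcg2. Btk, which encodes a Tec family kinase, was the exception and was not called. Among the 1192 tested genes whose mean of both genotypes lay in the range of these 9, from 51.2 to 300.1 FPKM, 34.4% were called lower and 14.3% higher, with a median log2 fold of -0.21. When the trends of the fold on transcript length and on expression were both taken out, 4 of the 9 genes (Plcg2, Csk, Lcp2 and Ptpn6) were still called lower, the median became -0.39 and Btk stood at 0.02. Over all tested genes 15.2% were then called lower and 12.6% higher. In bulk samples fewer cells of a type and less RNA per cell cannot be told apart.

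All 9 genes were abundant. By the authors' deposited table Ptpn6 was the most abundant in WT at 368 FPKM, followed by Fgr, Syk, Lyn, Plcg2, Csk, Lcp2 and Vav1, with Btk last at 54.7 FPKM, which exceeded the level of 89.0% of tested genes. In Srf KO the order of the first 4 changed in one place, Lyn (110 FPKM) standing above Syk (96.6 FPKM) in the authors' deposited table. The 5 genes Plcg2, Vav1, Csk, Btk and Lcp2 lay between 46.5 and 48.9 FPKM in Srf KO, per the authors' deposited table, whereas in WT they spread from 54.7 to 98.7 FPKM. Whether neighbours in these orders differ beyond the spread between samples could not be examined with 1 value per genotype.

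**Figure D1:**
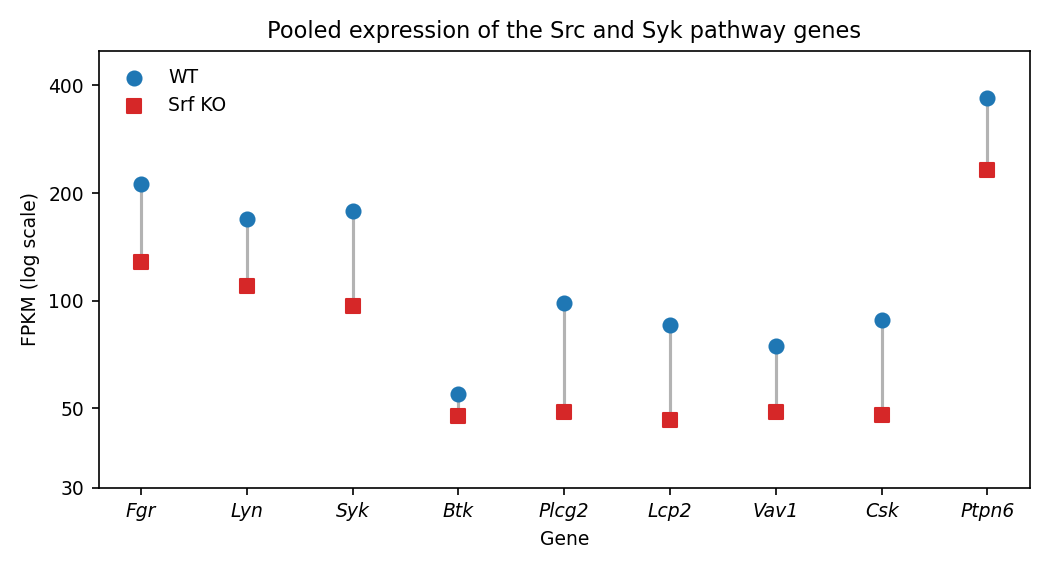
Pooled FPKM (log axis) of the 9 genes in WT (circles) and Srf KO (squares), 1 value per genotype as the authors deposited it, so no error bars are drawn. The square lies below the circle for every gene, and the shortest line is that of Btk (54.7 and 47.7 FPKM).

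The Src family kinases stand at the top of the pathway. Fgr (mm10 chromosome 4, 132974095 to 133001882, plus strand), a kinase found mostly in myeloid cells, stood at 212 FPKM (WT) and 129 FPKM (Srf KO) in the authors' deposited table. It fell by 0.72 ± 0.19 on the log2 scale, 1.65-fold, with an authors' adjusted p of 0.000759 in the deposited table. Lyn (chromosome 4, 3678121 to 3791612, plus strand), which phosphorylates both activating and inhibitory motifs, stood at 169.7 and 110 FPKM, a log2 fold of -0.63 ± 0.23 with an adjusted p of 0.0205 in the authors' deposited table. Lyn was the called gene nearest the threshold, and its call ended at an adjusted p limit of 0.01.

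The 2 transcripts of Lyn did not move alike. Lyn is spliced to a long form, LynA, of 512 codons and a short form, LynB, of 491 codons, which differ in coding sequence by a stretch of 63 bases (21 codons) that the short form lacks. In the authors' deposited isoform table LynA stood at 111 FPKM (WT) and 39.7 FPKM (Srf KO), a log2 fold of -1.49 ± 0.27 with an adjusted p of 1.59e-06. LynB stood at 58.3 FPKM (WT) and 70.2 FPKM (Srf KO), a log2 fold of 0.27 ± 0.28 that was not called (adjusted p = 0.533 in the authors' deposited table). LynA thus made up 65.6% of the Lyn transcript estimate in WT and 36.1% in Srf KO, per the authors' deposited table. The same rows recur in the coding sequence table, which draws on the same reads.

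Apart from this stretch the annotated transcripts differ by 12 bases at the start and 1 at the end, so few reads tell them apart. The difference between the 2 folds has no test in the tables used here. Among 1943 genes with at least 2 tested transcripts, 14.7% had a shift in the share of a transcript at least as large as the 29.5 percentage points of Lyn, and in 8.44% 1 transcript was called lower while another had a fold above 0. As background, LynA protein is the form that the ubiquitin ligase of the gene Cbl marks for rapid degradation in activated macrophages. In the authors' deposited table Cbl was at 41.6 FPKM (WT) and 9.23 FPKM (Srf KO) (log2 fold -2.17 ± 0.20). The values here are of RNA and not of protein, and a link between Cbl and the Lyn transcripts was not tested.

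Syk (chromosome 13, 52583437 to 52648792, plus strand), the kinase that binds phosphorylated ITAMs, stood at 178 FPKM (WT) and 96.6 FPKM (Srf KO) in the authors' deposited table. It fell 1.84-fold, a log2 fold of -0.88 ± 0.23 with an adjusted p of 0.000990 in the authors' deposited table. Syk has 2 start sites in the tables, which encode the same 629 codons. The upstream start gave 141 and 76.9 FPKM and was called lower (-0.88 ± 0.21), and the downstream start gave 36.8 and 19.7 FPKM with almost the same fold (-0.90 ± 0.44) but was not called, per the authors' deposited table of start sites. The share of the upstream start was 79.4% in WT and 79.7% in Srf KO, per the authors' deposited table.

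Btk (X chromosome, 134542341 to 134583140, minus strand) encodes a kinase that acts beside Syk on the phospholipase of Plcg2. It stood at 54.7 FPKM (WT) and 47.7 FPKM (Srf KO) in the authors' deposited table. Its log2 fold of -0.20 ± 0.18 was not called (adjusted p = 0.417 in the authors' deposited table), and the 95% interval ran from -0.56 to 0.16. That interval overlaps those of the other 8 genes except Plcg2, whose interval ran from -1.37 to -0.65, and no test of the difference between genes was made. The genotypes also differed in sex-linked RNA: Xist, made from the inactive X chromosome, was at 0.0154 FPKM (WT) and 4.92 FPKM (Srf KO), and the Y-linked gene Ddx3y at 13.5 and 4.23 FPKM, in the authors' deposited table. The part of this in the levels of the X-linked gene Btk, of the other 8 genes and of the lists below was not tested. Genotype and this difference in sex-linked RNA cannot be told apart here.

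**Figure D2:**
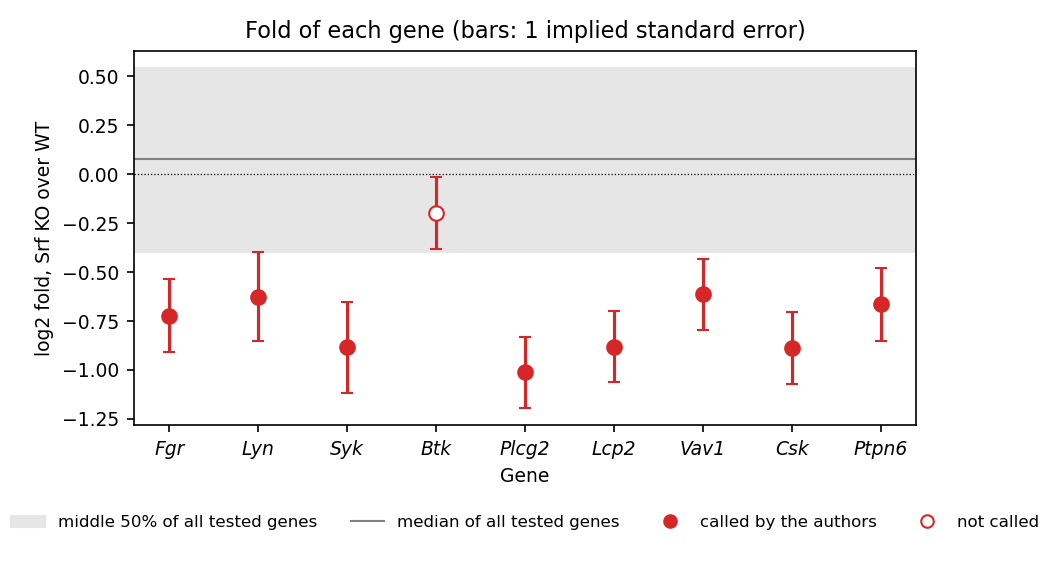
Log2 fold (Srf KO over WT) of the 9 genes with 1 implied standard error on either side; filled points were called by the authors and the open point (Btk) was not. The grey band holds the middle 50% of all tested genes, from -0.40 to 0.54, and the 8 called genes have folds below it.

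The effectors below Syk included the gene with the largest fall. Plcg2 (chromosome 8, 117498291 to 117635142, plus strand) encodes phospholipase C gamma 2, which makes the second messengers that raise calcium. It stood at 98.7 FPKM (WT) and 48.9 FPKM (Srf KO) in the authors' deposited table. That is a log2 fold of -1.01 ± 0.18 with an adjusted p of 6.39e-07 in the authors' deposited table, and Plcg2 alone of the 9 passed a 2-fold minimum, as did 6.45% of all tested genes in that direction. Lcp2 (chromosome 11, 34047201 to 34092280, plus strand) encodes SLP-76, the adaptor on which phospholipase and exchange factor assemble. It stood at 85.6 and 46.5 FPKM, a log2 fold of -0.88 ± 0.18 with an adjusted p of 1.66e-05 in the authors' deposited table.

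Vav1 (chromosome 17, 57279100 to 57329236, plus strand) encodes an exchange factor that couples Syk to Rac and actin. It stood at 74.6 FPKM (WT) and 48.8 FPKM (Srf KO) in the authors' deposited table, a log2 fold of -0.61 ± 0.18 with an adjusted p of 0.00390. None of its 3 transcripts was called on its own. The full form of 845 codons stood at 42.6 and 13.8 FPKM (log2 fold -1.63 ± 1.14), a form that lacks 72 coding bases at 30.5 and 34.3 FPKM (0.17 ± 0.80), and a form that lacks 117 coding bases at 1.51 and 0.685 FPKM, in the authors' deposited isoform table. With standard errors of this size the fall of the gene could not be assigned to a form. The 72 bases lie at mm10 chr17:57279285-57279356, inside the first exon of the full form, in the part that encodes the calponin homology domain. They are shown in capitals, with shared coding bases in lower case, because this stretch is the only coding difference between the 2 more abundant forms.

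Vav1 full form: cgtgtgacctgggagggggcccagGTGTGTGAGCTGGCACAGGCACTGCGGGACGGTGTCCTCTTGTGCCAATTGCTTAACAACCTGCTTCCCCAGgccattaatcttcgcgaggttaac
Vav1 form without the 72 bases: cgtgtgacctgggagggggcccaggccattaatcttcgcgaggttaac

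The genes that restrain the pathway were lower as well. Csk (chromosome 9, 57626646 to 57645180, minus strand) encodes the kinase that phosphorylates the inhibitory tail tyrosine of Src family kinases. It stood at 88.4 FPKM (WT) and 47.8 FPKM (Srf KO), a log2 fold of -0.89 ± 0.18 with an adjusted p of 1.64e-05 in the authors' deposited table. Ptpn6 (chromosome 6, 124720718 to 124738709, minus strand) encodes SHP-1, the phosphatase recruited by inhibitory receptors. It stood at 368 and 232 FPKM, a log2 fold of -0.66 ± 0.19 with an adjusted p of 0.00231 in the authors' deposited table. Nearly all of the Ptpn6 estimate came from its downstream start, 364 FPKM (WT) and 230.1 FPKM (Srf KO), and the upstream start gave 3.69 and 2.06 FPKM in the authors' deposited isoform table. Neither start was called on its own (adjusted p = 0.0823 for the downstream start in the authors' deposited isoform table). Set beside its substrates, the fall was 1.85-fold for Csk, 1.65-fold for Fgr and 1.54-fold for Lyn in the authors' deposited table, and these folds were not tested against each other. Lyn, Ptpn6 and Lcp2 each share exonic bases with 1 annotated gene on the other strand, and the library kit named in the labels does not keep the strand, so such reads cannot be told apart.

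**Figure D3:**
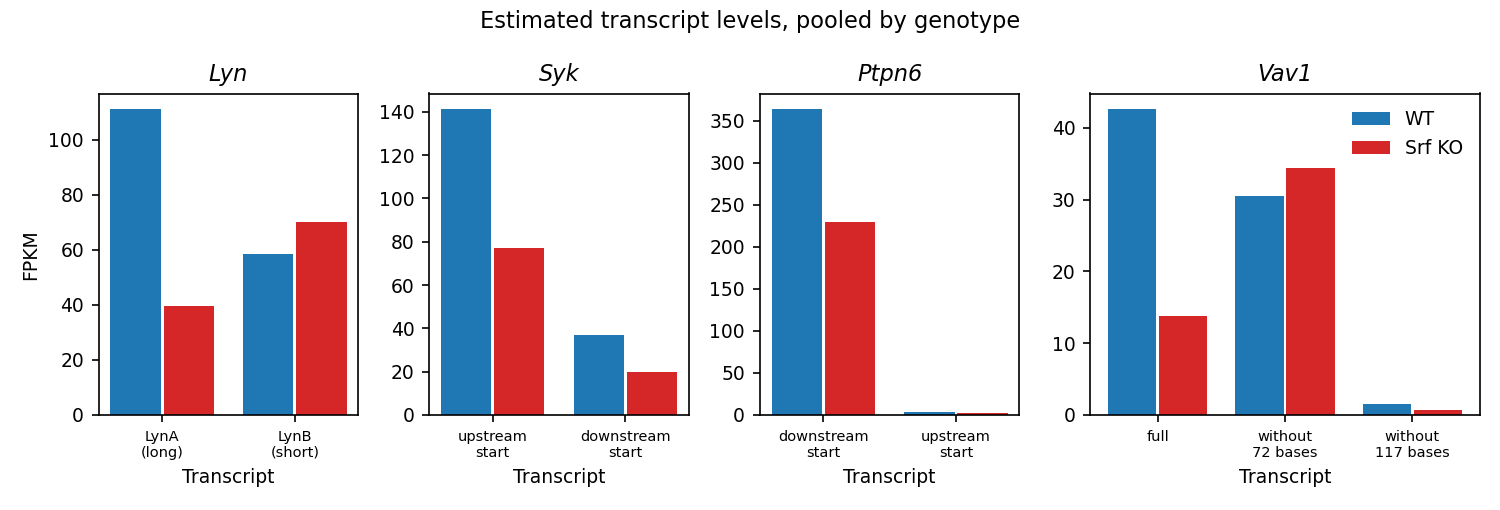
Estimated FPKM of each transcript of the 4 genes with more than 1, WT and Srf KO side by side, 1 pooled value per bar and a separate linear axis for each gene. LynA fell from 111 to 39.7 FPKM while LynB stood at 58.3 and 70.2 FPKM; the Syk pairs were 141 and 76.9 FPKM for the upstream start and 36.8 and 19.7 FPKM for the downstream start.

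At the level of transcripts, 6 of the 14 belonging to the 9 genes were called lower and 0 higher, beside 14% lower and 13.1% higher among all tested transcripts. Of 11 start site groups 7 were called lower and 0 higher, beside 16.1% and 15.1% of all tested groups. Of 13 coding sequences 6 were called lower and 0 higher, beside 15.8% and 14.4% of all those tested. At the authors' unadjusted p under 0.05 the count of higher rows was 0 in each of these tables and in the gene table too. These tables share their reads with the gene table. Only 2 of the 14 transcripts, LynB and the Vav1 form without the 72 bases, had a fold above 0.

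Promoter windows of 250 bases before an annotated start were found for 8 of the 9 genes in RefSeq sequence of GRCm38.p6, 10 windows in all, and Lyn had no entry. SRF binds the CArG box, and none of the 10 windows held one on either strand, as did 1.47% of 32851 windows of all genes. Windows of Btk and Lcp2 matched it in 9 of 10 letters, as did at least that many letters in 18.6% of all windows. The letters AGGAAGT, a core bound by ETS family factors such as the myeloid factor PU.1, were found on either strand in the windows of Vav1 and Ptpn6, beside 7.69% of all windows. The Ptpn6 window lies before the upstream start, which gave the few FPKM noted above. The annotated start after the Lcp2 window lies 273 bases from the start of the locus in the authors' table. For the nearer of the Csk windows this distance is 473 bases. A match is only a match of letters, and these windows do not cover enhancers. The windows of Vav1 (chr17:57278850-57279099, plus strand, AGGAAGT in capitals) and of Plcg2, the gene with the largest fall (chr8:117498025-117498274, plus strand, with no match), are given.

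Vav1 window: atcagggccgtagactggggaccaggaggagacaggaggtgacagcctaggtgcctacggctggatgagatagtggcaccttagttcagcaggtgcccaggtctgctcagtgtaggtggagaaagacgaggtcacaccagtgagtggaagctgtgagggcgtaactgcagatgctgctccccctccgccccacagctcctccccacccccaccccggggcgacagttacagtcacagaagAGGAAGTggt
Plcg2 window: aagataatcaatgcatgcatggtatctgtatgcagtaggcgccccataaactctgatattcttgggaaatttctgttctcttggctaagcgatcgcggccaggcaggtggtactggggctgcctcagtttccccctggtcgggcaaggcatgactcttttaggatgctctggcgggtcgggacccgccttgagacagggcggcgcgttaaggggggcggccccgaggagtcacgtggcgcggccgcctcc

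The wider pathway was examined in 7 lists of 99 other genes, of which 96 were tested, 47 called lower and 17 higher, with a median log2 fold of -0.49. Over all tested genes 17.8% were called lower and 17.7% higher, with a median of 0.08. The higher calls in the lists were thus near the share over all tested genes. The counts differed by level, here the mean FPKM of both genotypes, a split chosen after the data were seen. Of the 72 genes at 10 FPKM or more, 45 were called lower and 2 higher; over all tested genes of that level 28.1% were called lower and 14.0% higher. Of the 24 genes under 10 FPKM, 2 were called lower and 15 higher; over all tested genes of that level 10.9% were called lower and 20.2% higher.

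Receptors that signal through Src kinases and Syk were lower in 12 of 17 and higher in 1 (median log2 fold -0.73). The C-type lectin gene Clec4d (396 FPKM (WT) and 110 FPKM (Srf KO), log2 fold -1.85 ± 0.23), the P-selectin ligand gene Selplg (-1.49 ± 0.18) and the G-CSF receptor gene Csf3r (-1.47 ± 0.22) had the largest falls in the authors' deposited table. The high-affinity IgG receptor gene Fcgr1 rose from 2.76 to 7.74 FPKM (1.49 ± 0.24), per the authors' deposited table. Of the 4 adaptors that carry an ITAM or a related motif, 2 were lower and 1 higher. Tyrobp, which encodes DAP12, fell from 3765 to 2094 FPKM (-0.85 ± 0.20) and Hcst, which encodes DAP10, from 223 to 127 FPKM (-0.81 ± 0.20), per the authors' deposited table. Fcer1g, the Fc receptor gamma chain gene, stood at 1443 and 2034 FPKM in the authors' deposited table (0.50 ± 0.19), a call that ended when folds were centred on their median (adjusted p = 0.0793).

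Among the other Src family kinases 1 of 6 tested genes was lower and 4 were higher. After adjustment for length and expression 2 were called higher, beside 12.6% of all tested genes. Of the Src kinases described above, Fgr and Lyn lost their calls when the trends on length and expression were both taken out. The adjusted p recomputed from the authors' statistic was then 0.163 for Fgr and 0.464 for Lyn. The T cell kinase gene Lck (2.22 and 6.20 FPKM, 1.48 ± 0.28), Fyn (2.19 and 5.48 FPKM, 1.33 ± 0.24) and the B cell kinase gene Blk (2.91 and 4.52 FPKM, 0.64 ± 0.26) were higher in the authors' deposited table. Blk lost its call when folds were centred, where the adjusted p recomputed from the authors' statistic was 0.0746. In the Syk and Tec families 2 of 5 were lower and 3 higher. The kinase genes Bmx (72.0 FPKM in WT and 30.4 in Srf KO, -1.24 ± 0.18) and Tec (15.4 and 8.70 FPKM, -0.82 ± 0.24) fell in the authors' deposited table. The lymphoid gene Txk (2.15 ± 0.38) rose in the authors' deposited table.

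Adaptors were lower in 7 of 20 and higher in 6 (median log2 fold -0.34), beside 17.8% and 17.7% of all tested genes. After Cbl the largest falls were those of Pik3ap1, an adaptor of PI 3-kinase (-1.12 ± 0.20), and Fyb, a partner of SLP-76 (108 and 51.8 FPKM, -1.06 ± 0.18), in the authors' deposited table. The linker genes Lat (1.84 ± 0.31) and Lat2 (0.99 ± 0.29) and the T cell adaptor gene Grap2 (1.39 ± 0.30) rose, each from under 10 FPKM in WT, in the authors' deposited table. Of 21 downstream lipid enzymes, exchange factors and kinases 10 were lower and 2 higher (median -0.48). After adjustment for length and expression 5 were called lower and 0 higher, beside 15.2% and 12.6% of all tested genes. Rasgrp4, a Ras exchange factor gene of myeloid cells (123 and 49.4 FPKM, -1.32 ± 0.20), the PI 3-kinase delta gene Pik3cd (-1.22 ± 0.21) and the protein kinase C delta gene Prkcd (-1.11 ± 0.18) fell furthest in the authors' deposited table. Plcg1, the relative of Plcg2 used by T cells, rose from 0.978 to 1.75 FPKM (0.84 ± 0.31, adjusted p = 0.0217), per the authors' deposited table. That call ended when the trends on length and expression were both taken out, where the adjusted p recomputed from the authors' statistic was 0.111. Rac2, the main Rac of neutrophils, stood at 611 and 452 FPKM and was not called (adjusted p = 0.0779 in the authors' deposited table); it was picked out after its value was seen. Inhibitory receptors and phosphatases were lower in 13 of 23 and higher in 0 (median -0.59), beside 17.8% and 17.7% of all tested genes. At the authors' unadjusted p under 0.05, 1 of them was higher. The inhibitory receptor genes Cd300a (-1.25 ± 0.18) and Klra17 (-1.06 ± 0.20) and the adaptor gene Dok3 (-1.09 ± 0.18) had the largest folds there in the authors' deposited table.

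**Figure D4:**
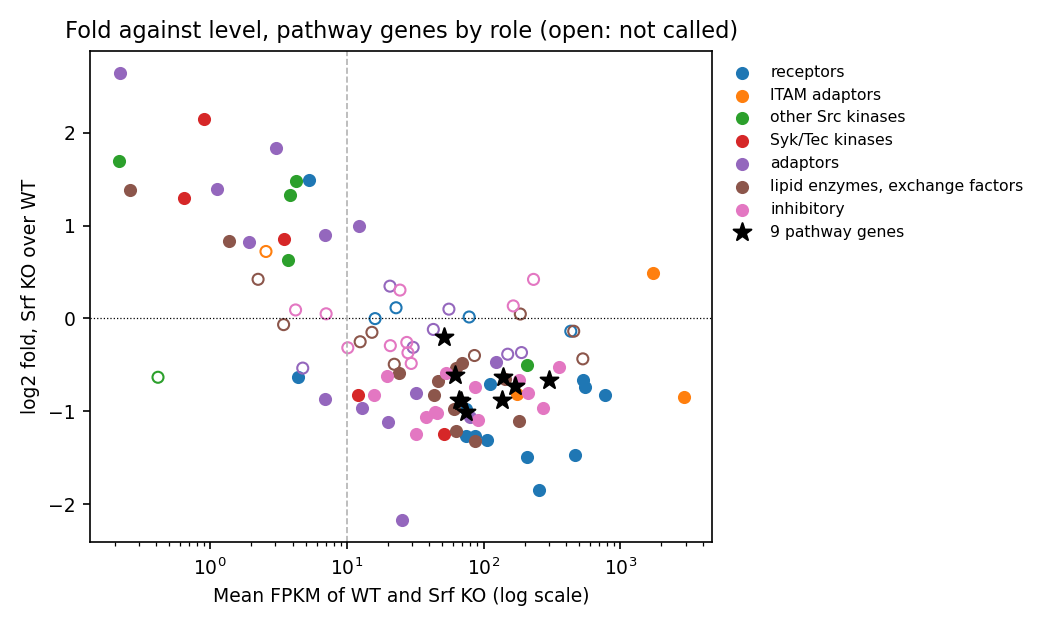
Log2 fold (Srf KO over WT) against the mean FPKM of WT and Srf KO (log axis) for the tested genes of the 7 lists, coloured by role, with the 9 Src and Syk pathway genes as stars; filled symbols were called, open circles were not, and the dashed line is at 10 FPKM. Of the 72 list genes right of the line 45 were called lower and 2 higher, and of the 24 to its left 2 were called lower and 15 higher.

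Several of these genes are also used by other marrow cells, and most markers of those cells were called higher in the Srf KO samples. Over all 12634 tested genes 17.8% were called lower and 17.7% higher. Of the tested genes with a mean under 10 FPKM, 10.9% were called lower and 20.2% higher. The T and NK list had 9 of its 10 markers called higher and 0 lower, their summed level going from 24.5 to 60.2 FPKM, and Lck and Zap70 belong to that list as well as to the kinases above. Of 10 B cell markers 5 were called higher and 0 lower (131 to 198 FPKM summed), and B cells use Lyn, Syk, Btk, Plcg2 and Ptpn6. Of 9 monocyte and macrophage markers 8 were higher and 1 lower (131 to 177 FPKM summed), the exception being Csf1r (58.5 and 27.4 FPKM in the authors' deposited table). Megakaryocyte and platelet markers, 6 of 8 called higher, went from 6.42 to 47.1 FPKM summed, 39.2 FPKM of the latter being Pf4 in the authors' deposited table, and Gp6 was listed at 0 in WT. Higher calls took in 5 of 7 erythroid markers (139 to 196 FPKM summed) and 6 of 7 eosinophil, basophil and mast cell markers (56.4 to 120.3 FPKM summed), with 0 of either list called lower; none of these lists with 0 lower calls had one at the authors' unadjusted p under 0.05 either. Most of the erythroid sum was Hbb-b2 (128 and 158 FPKM in the authors' deposited table), which was not called. The neutrophil markers that could be tested were called lower in 4 of 8 and higher in 1, the last being the myeloperoxidase gene Mpo. They summed to 41690 FPKM (WT) and 30500 FPKM (Srf KO), most of it Retnlg (24805 and 17117 FPKM in the authors' deposited table), which was not called. The part of cell composition in the falls of the 8 called pathway genes was not tested.

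**Figure D5:**
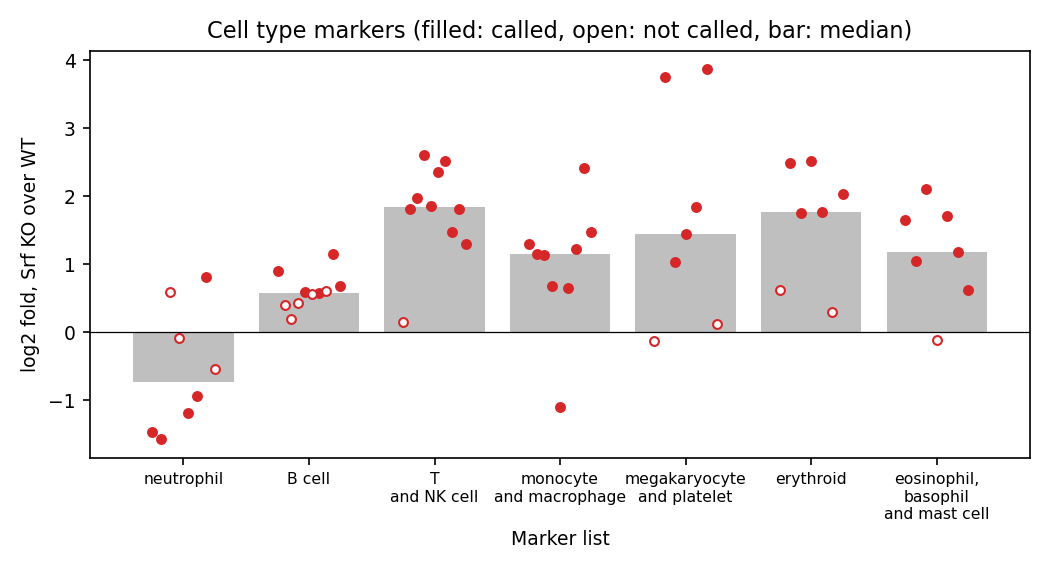
Log2 fold (Srf KO over WT) of cell type markers, 1 point per tested gene with a level above 0 in both genotypes, filled where called, with bars at the list medians. The neutrophil list has a median of -0.74 and the T and NK cell list one of 1.84.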

How the data were processed

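Libraries were made with the TruSeq RNA v2 kit of Illumina, per the labels' protocols. The submitters' processing notes name the mm10 build and, without settings, Cufflinks 2.0.0, CASAVA 1.8.1 and TopHat2 2.0.0. The authors deposited FPKM values, 1 per genotype, for genes, transcripts, start site groups and coding sequences. The log2 fold deposited by the authors is WT over KO and was turned here; where a group is at 0 it holds a placeholder and was not used. The test statistic is a score, and the p-value and q-value are also as the authors deposited them. It was checked that the p-value equals a two-sided normal p of the statistic and the q-value its Benjamini-Hochberg adjustment over tested rows. The authors' test is the main result, since no per-sample values were used; depth is unknown.

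The 9 genes and the lists were chosen with earlier results of these data known. Named in each list were up to 3 called genes per direction with the largest folds at 1 FPKM or more in a genotype. Markers were named by level. Some genes that the rule picks and 1 sequence are not reported here, though counts include those genes. The implied standard error is the absolute fold divided by the absolute statistic. Transcript structures, lengths and spliced sequences came from GENCODE M21 (GRCm38, the assembly of mm10), matched by RefSeq identifier; all 14 transcripts matched. Length trends were running medians over 50 bins, smoothed over 5, with a length for 98.1% of genes. Scripts ran in Python 3.11.15 with scipy 1.17.1, pandas 2.3.3, matplotlib 3.10.9 and numpy 2.4.6.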

Additional observations from a re-analysis of the deposited data

How the results depend on the processing

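The log2 folds of all 9 genes stayed below 0 in every alternative run, except that of Btk, which was 0.0155 after adjustment for length and expression. That adjustment left 4 of the 9 genes called lower, against 8 in the authors' deposited table, and moved their median log2 fold to -0.39, with 15.2% of all tested genes called lower and 12.6% higher; those that lost the call were Fgr, Lyn, Syk and Vav1. An adjusted p of at most 0.01 ended the call of Lyn. A 2-fold minimum left 1 of the 9 genes called lower, and in the 7 lists 18 genes lower and 10 higher against 47 and 17; over all tested genes 6.45% were then lower and 7.16% higher. It left 2 of 14 transcripts, 1 of 11 start site groups and 2 of 13 coding sequences called lower, against 6.26%, 6.28% and 6.52% of all tested rows. A filter at 5 FPKM in at least 1 genotype left 47 list genes called lower and 6 higher. Over all 7414 genes then tested 26.45% were called lower and 16.2% higher. Median centring shifted all folds by 0.08. No paired analysis was possible because the values are pooled by genotype, and for the same reason no sample could be left out in turn. Without counts no limit from depth can be given.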
